A study of Mus musculus with 4 samples.

Results

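Cela1 and Cela3b encode chymotrypsin-like elastases, and their RNA 3′ ends were followed here through 2 poly(A) site libraries and 2 protein-RNA crosslinking libraries of mouse cells. The 2 genes were located by fixed windows on the minus strand of the mm9 build, chromosome 15 from 100504000 to 100519000 for Cela1 and chromosome 4 from 136976000 to 136987000 for Cela3b. The windows held 65 of the 315205 cleavage positions seen with either library. Their dominant clusters were 2 of 56206 clusters in the series, and 2 of its 114 nuclear clusters with 10000 or more reads over both libraries together. The 2 genes were chosen by their read numbers and their ratio between the libraries, so these values are given as a description, with no test.

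Total RNA of a commercial mix of 11 cell lines went into 3'READS, which captures fragments that carry a poly(A) tail and reads the cleavage position from their sequence. In the first library the fragments were captured with CU5T45, an oligo of 45 T and 5 U, under a low-salt wash with formamide and with release by RNase H. In the second they were captured on oligo(dT)10-25 beads, the T stretches of 10 to 25 nt used in ordinary poly(A) selection. CLIP-seq, in which a protein is crosslinked to its RNA by UV light and the bound fragments are sequenced, was performed for CstF64 in proliferating C2C12 myoblasts and is given as replicates 1 and 2. The mix is bulk RNA, so fewer cells that make an elastase and less elastase RNA per cell cannot be told apart. The labels used here do not list its 11 lines, and the gene names are those given with the windows.

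Elastases are serine proteases that acinar cells of the pancreas store as inactive proenzymes and secrete into the gut, where trypsin activates them to digest protein. At the end of such a gene, the cleavage machinery reads a hexamer, most often AAUAAA, a short way upstream of the cut and U- or GU-rich sequence downstream of it, which is bound by CstF64. Poly(A) polymerase then adds the tail that both oligos bind. Cleavage of 1 site often falls on several neighbouring nucleotides, called cleavage heterogeneity.

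The annotated 3′ ends of Cela1 are shown because its measured positions are described against them. The Cela3b end was not matched to measured positions. They are the last 30 bases of 3 transcripts in GENCODE vM21. This annotation uses GRCm38 and the files use mm9, so coordinates were kept apart and distances within a gene alone were compared. Capitals mark 1 hexamer on the transcribed strand, which was set beforehand for each transcript. No list of hexamers was searched.
Cela1, longest transcript: aggcaAATAAAaatcaatgtgttaccatac
Cela1, shorter form: caggaAGTAAAggagctgctgcttttgcaa
Cela3b, processed transcript: ctctaaagAATAAAgacctttctgaaagtc
The hexamer AATAAA was followed by 19 bases in the longest Cela1 transcript and by 16 in the processed Cela3b transcript. It occurred in the last 30 bases of 35.5% of 58793 annotated protein-coding transcripts, among them several of the same gene. Whether each of them has a complete 3′ end was not checked. The printed Cela3b transcript is not annotated as protein-coding, so this share is no background for it. The shorter Cela1 form had no AATAAA in its last 30 bases. It held AGTAAA, present in 2.44% of the protein-coding transcripts, with 19 bases after it. AGTAAA was set for this transcript alone, so its share is no background for holding some variant of AATAAA. The longest Cela1 transcript has 8 exons and a 3′ untranslated region of 279 nt. The protein-coding Cela3b transcript, annotated to end 9 nt beyond the one printed, has 8 exons and an untranslated region of 75 nt. Its own last 30 bases are not printed, and AATAAA was not looked for in them. The place of the hexamer is therefore given for the processed Cela3b transcript alone.

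Cela1 was the most abundant 3′ end of the nuclear genome with either oligo. Its window held 251392 CU5T45 reads, 3.73% of the library (95% exact interval 3.72 to 3.75), or 1 read in 26.8. With oligo(dT)10-25 it held 88610 reads, 2.54% of the library (2.53 to 2.56). The ratio of these shares was 1.47 (1.46 to 1.48), which put Cela1 at place 42 of the 114 abundant clusters when they were ordered by their ratio. The median ratio of the other 112 was 1.25, and that of all 16636 nuclear clusters with 30 or more reads was 1.08. Here and below a ratio divides the share of all CU5T45 reads by the share of all oligo(dT)10-25 reads, and intervals cover counting error only, because each oligo had 1 library.

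Cela3b was less abundant than Cela1 and differed more between the oligos. Its window held 12499 CU5T45 reads, 0.185% of the library (0.182 to 0.189), and 1433 oligo(dT)10-25 reads, 0.0411% (0.0390 to 0.0433). The ratio was 4.51 (4.27 to 4.76), second among the 114 abundant clusters. Of these, 1.75% had a ratio of 4 or more and 8.77% a ratio of 2 or more. The 114 were chosen by reads of both libraries together. The Cela3b cluster entered through its 12498 CU5T45 reads, beside 1432 from oligo(dT)10-25, so its place among them is not independent of its ratio. Among all 16636 nuclear clusters with 30 or more reads, 1.76% reached 4 and 12.3% reached 2 in that direction. By reads, the Cela3b cluster stood at place 54 of the nuclear clusters with CU5T45 and at place 294 with oligo(dT)10-25.

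The relative level of the 2 elastase ends differed between the libraries. With CU5T45 there were 20.1 Cela1 reads for each Cela3b read (19.8 to 20.5), and with oligo(dT)10-25 there were 61.8 (58.7 to 65.2). Each read marks 1 captured end, so no correction for transcript length enters these numbers. The cause of the difference was not tested.

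Nearly all reads of both genes fell in 1 cluster at the end of the gene. The Cela1 cluster ran over 90 nt, from 100504828 to 100504917, and took all but 144 CU5T45 reads and 38 oligo(dT)10-25 reads of the window. Outside it lay 0.0573% of the CU5T45 reads (0.0483 to 0.0674) and 0.0429% of the oligo(dT)10-25 reads (0.0303 to 0.0589), and these intervals overlap. The Cela3b cluster ran over 37 nt, from 136976889 to 136976925, and 1 read of each library lay outside it. The plus strand served as background and was almost empty. It held 1 CU5T45 read and 0 oligo(dT)10-25 reads in the Cela1 window, and 0 reads of either library in the Cela3b window, where 0 allows up to 0.0240% of the CU5T45 window reads and 0.209% of the oligo(dT)10-25 window reads.

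**Figure D1:**
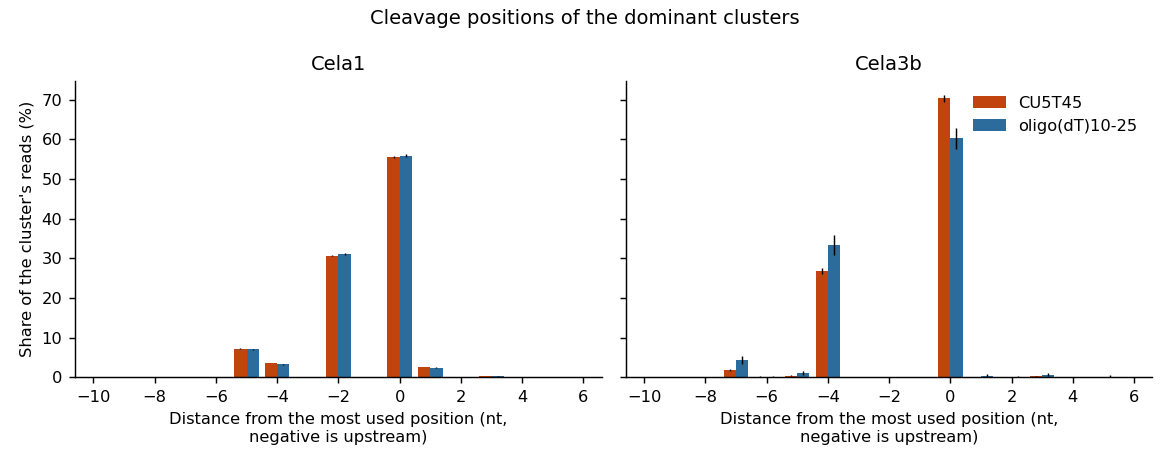
Share of the reads of the dominant cluster (%) at each position, for Cela1 (left panel) and Cela3b (right panel), by distance in nt from the most used position. Red bars are CU5T45, blue bars oligo(dT)10-25, and lines are 95% exact intervals. The 2 colours differ by at most 0.413 percentage points in Cela1, while in Cela3b the most used position is higher with CU5T45 (70.3%) than with oligo(dT)10-25 (60.2%).

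Cleavage of Cela1 was spread over a few nucleotides, with close shares but not equal ones at each position with the 2 oligos. The most used position, 100504852, had 139404 of the cluster's 251248 CU5T45 reads, 55.5% (55.3 to 55.7), and 49510 of its 88572 oligo(dT)10-25 reads, 55.9% (55.6 to 56.2). The position 2 nt upstream, 100504854, had 77082 CU5T45 reads (30.7%) and 27477 oligo(dT)10-25 reads (31.0%). Further upstream, 100504857 held 7.21% of CU5T45 and 7.04% of oligo(dT)10-25 reads, and 100504856 held 3.58% of CU5T45 reads (3.51 to 3.65) and 3.25% of oligo(dT)10-25 reads (3.13 to 3.36). Downstream, 100504851 had 2.60% of CU5T45 reads (2.54 to 2.66) and 2.43% of oligo(dT)10-25 reads (2.33 to 2.53), and 100504849 had 0.269% (0.249 to 0.290) and 0.208% (0.179 to 0.240) in the same order. All positions downstream of the most used one together took 2.91% of CU5T45 reads (2.84 to 2.97) and 2.66% of oligo(dT)10-25 reads (2.55 to 2.76). Of the 12 Cela1 positions with 30 or more reads, 4 had shares whose intervals do not overlap between the libraries, which are 100504856, 100504851, 100504849 and 100504859. In the 112 other abundant clusters this held for 41.6% of 704 such positions. No position of the cluster differed by more than 0.413 percentage points between the libraries. The distance between the 2 profiles, the part of the reads that would have to move to make them equal, was 0.783%, lower than in 94 of the 112 other abundant clusters, whose median was 3.33%. Counting error raises this distance where reads are few, and depth was not matched between clusters. Cela1 had more oligo(dT)10-25 reads than any other abundant cluster.

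Cela1 cleavage was more spread than in most of the other abundant clusters. The share of its most used position was below that of 86 of the 112 others with CU5T45 and of 85 with oligo(dT)10-25, whose medians were 78.2% and 80.3%. The effective number of positions, which equals the count of positions when all are used evenly, was 3.08 with CU5T45 and 3.01 with oligo(dT)10-25, above 90 and 88 of the 112 others. The shortest stretch with 90% of the reads was 6 nt with CU5T45 and 5 nt with oligo(dT)10-25, beside medians of 4 and 3.5 nt in the others. Counted simply, the cluster had 27 positions with CU5T45 and 21 with oligo(dT)10-25, of which 5 and 3 had 1 read. That count follows depth: at 1432 reads, the number that Cela3b had with oligo(dT)10-25, 8.05 CU5T45 positions and 7.81 oligo(dT)10-25 positions would be seen on average.

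The measured positions of Cela1 were set against the letters of its transcript. The last 90 bases of the longest Cela1 transcript were slid along the measured positions, their final base lying at the most used one or up to 60 nt beyond it, and the reads that would fall on A were counted. Of these 61 placings, 1 put 0 of 330160 reads on A, and it set the last base of the transcript on the most used position itself. The next best put 0.0718% there and the median placing 41.7%, while 40.0% of the bases are A. That placing covered 97.2% of the reads of the cluster, since 9660 reads fell beyond the last base, and the others covered 99.7% or more. It was picked for its reads on A, so this is a description and no test. An A encoded beside the cut cannot be told from the first A of the tail. For Cela3b the same procedure was run with the protein-coding transcript, which is not the one printed. It gave no single answer, since 3 of 61 placings put 0 reads on A, so Cela3b positions were not matched to letters.

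In Cela3b the oligos gave different weights to the same positions. The most used, 136976918, had 8789 of the cluster's 12498 CU5T45 reads, 70.3% (69.5 to 71.1), and 862 of its 1432 oligo(dT)10-25 reads, 60.2% (57.6 to 62.7). Lying 4 nt upstream, 136976922 held 3343 CU5T45 reads, 26.7% (26.0 to 27.5), and 478 oligo(dT)10-25 reads, 33.4% (30.9 to 35.9). At 136976925, 7 nt upstream, were 234 CU5T45 reads, 1.87% (1.64 to 2.13), and 61 oligo(dT)10-25 reads, 4.26% (3.27 to 5.44). At each of these 3 positions, of 5 with 30 or more reads, the 2 intervals do not overlap. The same held for 41.6% of 704 such positions in the 112 other abundant clusters. All positions upstream of the most used one together took 29.2% of CU5T45 reads (28.4 to 30.04) and 38.7% of oligo(dT)10-25 reads (36.2 to 41.3), and those downstream took 0.440% (0.332 to 0.572) and 1.12% (0.640 to 1.81).

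The distance between the 2 Cela3b profiles was 10.3%, above that of 93 of the 112 other abundant clusters. Depth was not matched here either, and Cela3b had the fewest oligo(dT)10-25 reads of the abundant clusters. Cela3b entered the abundant set through its CU5T45 reads, as given above. The effective number of positions was 2.10 with CU5T45 and 2.51 with oligo(dT)10-25, beside medians of 2.02 and 1.90 in the others. At 1432 reads, 8.08 CU5T45 positions would be seen on average, beside the 9 that oligo(dT)10-25 had at that depth. A position 29 nt downstream, 136976889, had 9 CU5T45 reads and 0 oligo(dT)10-25 reads. A difference from the rest of the cluster was not detectable there at this depth. The most used position was the same with both oligos in both genes, as in 93.0% of the 114 abundant clusters.

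**Figure D2:**
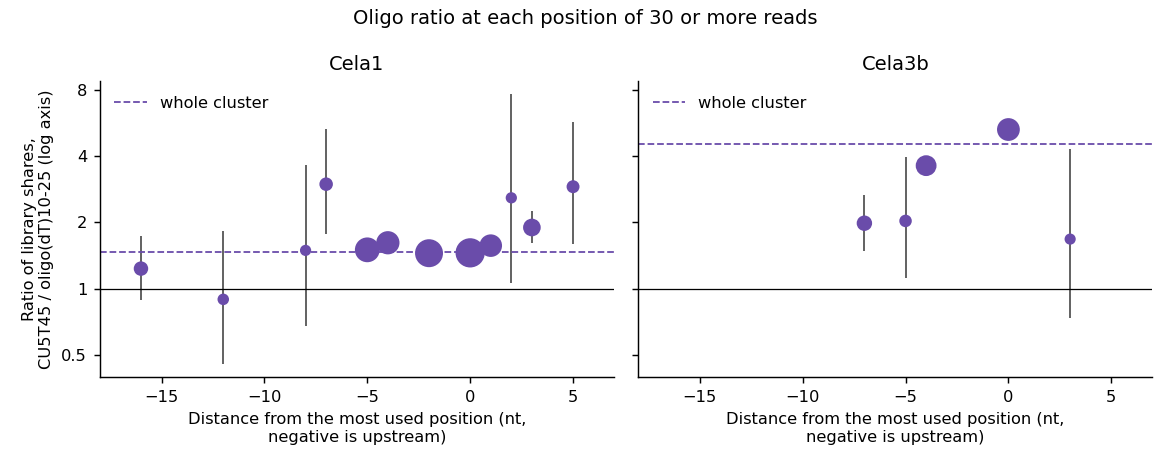
Ratio of library shares, CU5T45 over oligo(dT)10-25, on a log axis at each position with 30 or more reads in the dominant clusters of Cela1 (left) and Cela3b (right), against the distance from the most used position in nt. Lines are 95% exact intervals, larger points have more reads, and the dashed line is the ratio of the whole cluster. The 5 positions of Cela1 with most reads lie between 1.45 and 1.62 and several with fewer reads lie higher, and the Cela3b ratio is highest at the most used position (5.27).

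Position by position, the Cela1 ratio lay between 1.45 and 1.62 at the 5 positions with most reads. It was 1.46 (1.44 to 1.47) at the most used position, 1.45 (1.43 to 1.47) at 100504854, 1.502 (1.46 to 1.55) at 100504857, 1.62 (1.55 to 1.69) at 100504856 and 1.57 (1.49 to 1.65) at 100504851. At 100504849, with 675 CU5T45 and 184 oligo(dT)10-25 reads, it was 1.90 (1.61 to 2.24). The highest ratio within the cluster was 2.98 (1.77 to 5.32) at 100504859, with 98 CU5T45 and 17 oligo(dT)10-25 reads. Next came 2.90 (1.60 to 5.71) at 100504847, with 73 and 13 reads in the same order. The lowest were 0.896 (0.457 to 1.82) at 100504864, with 26 CU5T45 and 15 oligo(dT)10-25 reads, and 1.23 (0.892 to 1.73) at 100504868, with 129 and 54. The interval lay apart from that of the whole cluster (1.45 to 1.48) at 5 of the 12 positions of the cluster with 30 or more reads, beside 39.3% in the other abundant clusters, and at all 5 it lay above. Of the 13 positions in the window with 30 or more reads, 4 had a ratio of 2 or more, beside 15.7% of 23560 nuclear positions, and 10 had an interval above 1, beside 28.4%. Both shares carry the ratio of the whole gene, for which it was picked.

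Along the Cela3b cluster, the ratio interval lay apart from that of the whole cluster (4.27 to 4.77) at 4 of 5 positions. In the other abundant clusters this held for 39.3% of 704 positions. From upstream to downstream, the ratio was 1.98 (1.49 to 2.67) at 136976925, 2.03 (1.11 to 3.95) at 136976923, 3.61 (3.28 to 3.99) at 136976922 and 5.27 (4.91 to 5.66) at the most used position. At 136976915, 3 nt downstream of it, the ratio was 1.68 (0.739 to 4.29), from 26 CU5T45 and 8 oligo(dT)10-25 reads. The interval of the most used position lies above those of the other 4. Its ratio was 1.46 times that of the position 4 nt upstream. Between the 2 leading positions of Cela1, 2 nt apart, the same quotient was 1.00, while other Cela1 positions departed further, as given above. Of the 5 Cela3b positions with 30 or more reads, 3 had a ratio of 2 or more, beside 15.7% of the nuclear positions. A ratio of 4 or more was reached by 1 of the 5, beside 2.70%. Both shares carry the ratio of the whole gene, for which it was picked. With the most used position left out, the ratio of the Cela3b window was 3.36 and that of the Cela1 window 1.48.

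**Figure D3:**
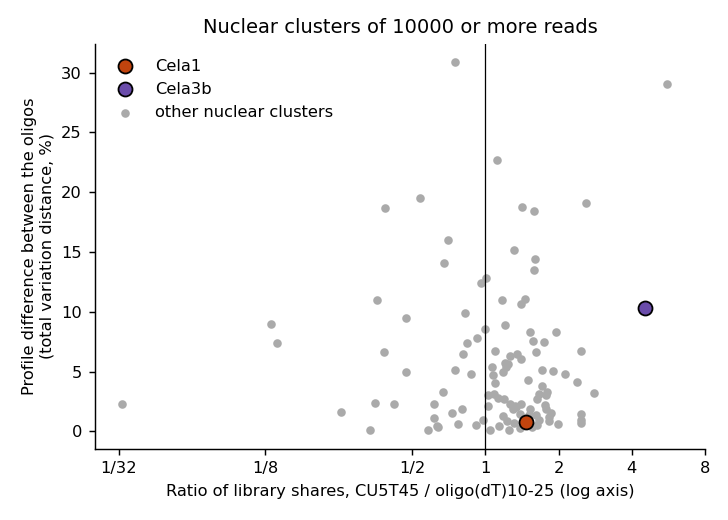
The 114 nuclear clusters with 10000 or more reads over both libraries, by ratio of library shares (CU5T45 over oligo(dT)10-25, log axis) and by the distance between their 2 cleavage profiles (%). Cela1 lies low near the middle (1.47 and 0.783%), and Cela3b far to the right (4.51 and 10.3%) with 1 cluster of higher ratio.

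The cleavage profile within 12 nt of the most used position was compared between each elastase and the 113 other abundant clusters, as the mean distance over both libraries. Closest to Cela1 was the cluster at 38191116 on chromosome 19, minus strand, at a distance of 11.7%. It was followed by 71632095 on chromosome 1, minus strand (14.8%), and 41802063 on chromosome 6, plus strand (16.2%). The median distance was 42.9%. Their ratios were 0.472, 1.96 and 1.19, in that order, beside 1.47 for Cela1. Closest to Cela3b was 134193669 on chromosome 7, minus strand (8.60%, ratio 0.823), then 32282779 on chromosome 18, minus strand (18.5%, ratio 1.90), and 136266260 on chromosome 5, plus strand (21.0%, ratio 1.03), with a median of 34.4%. Cela1 and Cela3b were 39.7% apart, which placed Cela3b 26 in order of likeness to Cela1 and Cela1 85 in order of likeness to Cela3b.

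Within the body of Cela1 a minor 3′ end stood out from single reads. At 100509050, 4198 nt upstream of the main site, there were 126 CU5T45 and 22 oligo(dT)10-25 reads. With 1 CU5T45 read 4 nt downstream they formed a cluster with a ratio of 2.98 (1.89 to 4.93), whose interval lies above that of the main Cela1 site. It amounted to 0.0505% of the main cluster with CU5T45 and 0.0248% with oligo(dT)10-25. In the annotation, the shorter form ends 4199 nt upstream of the longest transcript, 1 nt from the measured distance, and its last bases are printed above. No other cluster beside the main site reached 30 reads. The cluster 206 nt upstream had 4 CU5T45 and 3 oligo(dT)10-25 reads, and another Cela1 transcript is annotated to end 203 nt upstream. A single position 68 nt downstream of the main site, 100504784, likewise had 4 CU5T45 and 3 oligo(dT)10-25 reads. The Cela3b window held no second cluster.

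**Figure D4:**
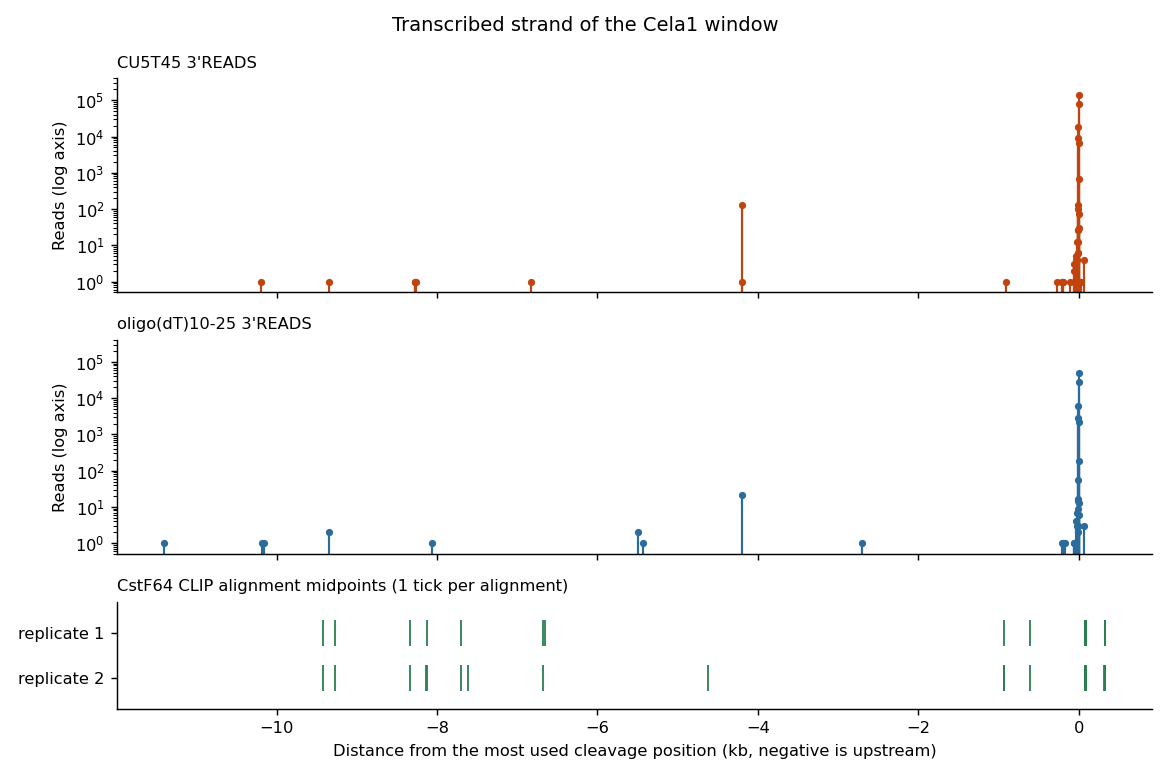
Transcribed strand of the Cela1 window by distance from the most used cleavage position in kb. The upper panels give reads per position on a log axis for CU5T45 and oligo(dT)10-25, and the lowest panel marks the midpoints of CstF64 CLIP alignments, 1 tick each, for both replicates. Apart from the main site, the minor end 4198 nt upstream is the only position with more than 4 reads outside the dominant cluster.

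CstF64 alignments from C2C12 cells were found on the transcribed strand of Cela1, and none was found at Cela3b. The Cela1 window held 16 alignments in replicate 1 and 22 in replicate 2, with 0 on the plus strand in both. No control library was used here, so the plus strand stands as the background. Of the alignments, 12 had the same start and end in both replicates, which is 75.0% of replicate 1 and 54.5% of replicate 2. Their likeness is no measure of replication, since the labels do not say that they came from separate cultures. The Cela3b window held 0 alignments on either strand in both replicates, which allows up to 3. Alignments were not divided by the level of either RNA in C2C12, which was not measured. Across the nuclear genome, 5.89% of bins of 15 kb on 1 strand in replicate 1 and 5.30% in replicate 2 had at least as many alignments as the Cela1 window, and 79.6% and 78.6% had 0.

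The alignments nearest the Cela1 site lay downstream of it. In replicate 1, 5 alignments stretched from 62 to 107 nt downstream, and in replicate 2, 6 alignments did, with midpoints 81 to 89 nt from the most used position. This patch covered the position with 4 CU5T45 and 3 oligo(dT)10-25 reads 68 nt downstream. A second patch held 2 alignments in replicate 1, from 296 to 354 nt downstream, and 4 in replicate 2, from 286 to 353 nt. The 200 nt upstream of the site held 0 alignments in both replicates. The other 9 and 12 alignments lay in the gene body, with midpoints from 606.5 to 9422 nt upstream. Every alignment in the window had 1 read except 1 in replicate 2, which had 2.

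**Figure D5:**
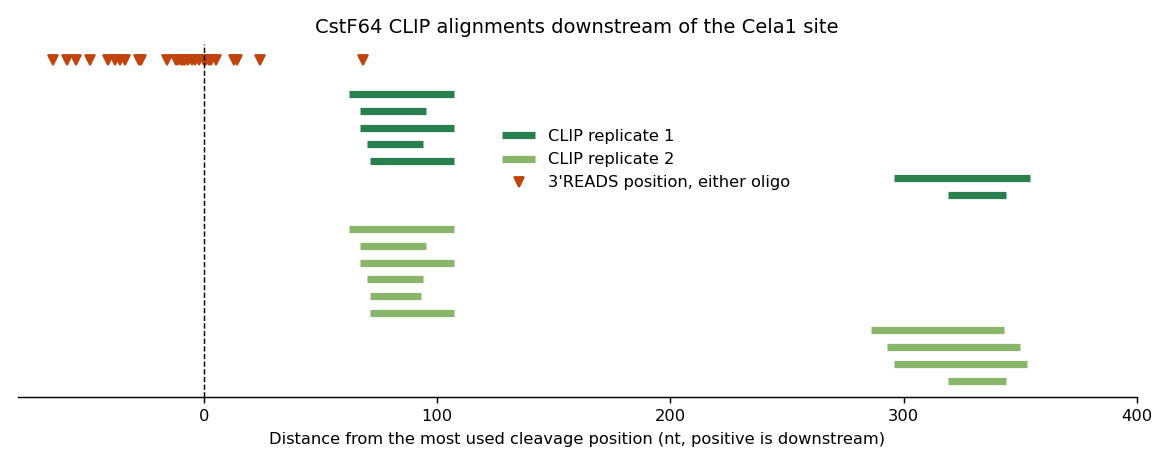
CstF64 CLIP alignments downstream of the Cela1 site, drawn to scale by distance from the most used cleavage position in nt, with replicate 1 in dark and replicate 2 in light green. Triangles mark 3'READS positions of either oligo. Alignments of both replicates form a patch from 62 to 107 nt and a second one about 286 to 354 nt downstream, and none lies at the main cleavage positions.

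Counted within 200 nt on both sides, Cela1 had 5 alignments in replicate 1 and 6 in replicate 2, and Cela3b had 0 in both. Among the 112 other abundant clusters, 24 had more alignments than Cela1 in each replicate. In 65 of them in replicate 1 and 64 in replicate 2 there were 0, as at Cela3b. The mix of 11 lines and the C2C12 cells are different samples. Alignments were therefore placed by distance from the cleavage positions, and their numbers were not compared with read numbers.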

How the data were processed

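The deposited files give whole-number read counts, the only unit used. A 3'READS line holds 1 cleavage position with its count, and a CLIP line 1 distinct alignment (median length 35 and 36 nt) with its count. The submitters' processing notes name mm9, Bowtie and Novoalign. Read filters and the first number of the coordinate system are not given in the sources used here. The coordinate of a position is therefore exact to within 1 nt. Where A is encoded beside the cut, the cut itself is less certain, as given above. The libraries held 6738355 CU5T45 and 3482826 oligo(dT)10-25 reads. A count of 0 allows up to 3 reads, 0.445 and 0.861 per 1e6 reads. The CLIP files held 1101047 and 1352122 alignments. PCR copies are not independent molecules.

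Pooled positions up to 24 nt apart on a strand were joined into clusters, of which those under 3 reads were dropped. Ratios of shares were given at 30 or more reads with exact conditional binomial 95% intervals, and shares with Clopper-Pearson intervals. The ratio intervals were run on simulated independent counts. Those counts held no PCR copies and no differences between replicate libraries, so the run says nothing about either. No p-value was computed. CLIP alignments were placed by midpoint. Named were positions with 1% or more of the reads of a window, other clusters with 30 or more reads, the 3 highest and 3 lowest ratios, and the 3 nearest profiles. Members, lists and rules were chosen with earlier results of these data known, and the placing of transcript ends, the annotated distances, the counts of positions with intervals apart and the CLIP bins after the values were seen. The 22 pancreatic acinar markers listed could not be located without an mm9 annotation and were not analysed here beyond Cela1 and Cela3b, nor was the gene label checked against mm9. The software was matplotlib 3.10.9, scipy 1.17.1, pandas 2.3.3 and numpy 2.4.6 under Python 3.11.15.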

Additional observations from a re-analysis of the deposited data

How the results depend on the processing

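Of 84 alternative values, 59 stayed within counting error of the value reported or, for counts of positions, reads or alignments, within 1.5 times of it. Counting each position once turned the ratios below 1, to 0.969 and 0.985 for the Cela1 window and cluster and 0.843 and 0.851 for those of Cela3b, because it divides by the number of positions in each library and no longer by reads. It also put 37.2% of CU5T45 and 38.2% of oligo(dT)10-25 positions outside the Cela1 cluster, and 9.09% and 10.0% outside that of Cela3b. Without mitochondrial reads the Cela1 ratio was 1.42. Without the most used position the window ratios were 1.48 and 3.36 and the profile distances 1.49% and 6.93% for Cela1 and Cela3b. In a single random draw of 1432 reads, the most used Cela1 position held 55.2% of CU5T45 and 55.5% of oligo(dT)10-25 reads. The most used Cela3b position held 67.9% of CU5T45 reads. Such a draw leaves the expected share unchanged, so these shifts are sampling error of the draw. Asking for 100 reads left 2 Cela1 positions with a ratio of 2 or more. With a gap of 10 nt, 0.0712% of CU5T45 and 0.0621% of oligo(dT)10-25 reads lay outside the Cela1 cluster, and 0.0800% of CU5T45 reads outside that of Cela3b. Leaving out each CLIP replicate gave 16 to 22 Cela1 alignments and 0 for Cela3b. No paired analysis was possible because the oligos had 1 library each and the CLIP replicates form 1 group. Depth limits Cela3b most, at 1432 oligo(dT)10-25 reads.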
